A study of Mus musculus with 3 samples.

Results

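The EGF receptor family has 4 members in the mouse, Egfr, Erbb2, Erbb3 and Erbb4, and they were taken by name as 4 of the 27998 genes counted. Their levels were followed across cell classes of the newborn dorsal cortex in 3 single-cell libraries: 1 from control pups, 1 from pups with Cre driven by Emx1 and 1 from pups with Cre driven by human GFAP (hGFAP), here called the Emx1 and the hGFAP mutant. The control carried floxed Map2k1 and Map2k2, the genes of the kinases MEK1 and MEK2 that activate ERK, and its genotype label reads WT. The mutants are labelled dcko for both of these genes, with Cre under the Emx1 promoter, which is active in early progenitors of the dorsal telencephalon, or under the human GFAP promoter, which is active in radial glia. In all 3 groups the dye FlashTag was put into the lateral ventricle at embryonic day 18, pups were taken at postnatal day 2, and cells positive for tdTomato were sorted. The labels do not say which allele carried tdTomato or how many pups were pooled. With 1 library per genotype no test between genotypes was possible, and every interval given covers counting error only.

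Members of this family are tyrosine kinases of the cell surface. Egfr binds EGF, transforming growth factor alpha (Tgfa), Hbegf and amphiregulin (Areg), Erbb3 and Erbb4 bind neuregulins, and Erbb2 has no known ligand and acts as a partner of the others. Erbb3 has a weak kinase and signals through its partners. Binding brings receptors together in pairs, and adaptors such as Grb2 and Sos1 pass the signal to RAS, RAF, MEK and ERK, so the targeted kinases lie below these receptors. In the forebrain Egfr is known from glial and multipotent progenitors, Erbb4 from interneurons and Erbb3 from the oligodendrocyte lineage.

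Egfr (ENSMUSG00000020122) spans chr11:16752203-16918158 on the plus strand of GRCm38, and Erbb2 (ENSMUSG00000062312) lies on the same chromosome at chr11:98412470-98437716, plus strand. Erbb3 (ENSMUSG00000018166) spans chr10:128567523-128589652 and Erbb4 (ENSMUSG00000062209) chr1:68032186-69108059, both on the minus strand. RefSeq start regions (GRCm38.p6, 250 bases before to 50 after the gene's start) were at hand for 3 members and are shown because Egfr and Erbb4 were lower in both mutants in several classes and Erbb2 was called lower in none. Capitals mark CCGGAAG or its reverse CTTCCGG, a form of the ETS site here called the ETS core. ETS factors, the ERK-responsive Etv1, Etv4 and Etv5 among them, also bind other forms, which were not searched for.
Egfr, chr11:16751953-16752252, plus strand: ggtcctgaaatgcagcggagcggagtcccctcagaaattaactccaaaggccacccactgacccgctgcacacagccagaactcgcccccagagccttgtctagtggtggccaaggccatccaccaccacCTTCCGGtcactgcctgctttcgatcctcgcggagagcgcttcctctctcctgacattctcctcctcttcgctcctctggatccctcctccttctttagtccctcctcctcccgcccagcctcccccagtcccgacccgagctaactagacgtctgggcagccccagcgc
Erbb2, chr11:98412234-98412533, plus strand: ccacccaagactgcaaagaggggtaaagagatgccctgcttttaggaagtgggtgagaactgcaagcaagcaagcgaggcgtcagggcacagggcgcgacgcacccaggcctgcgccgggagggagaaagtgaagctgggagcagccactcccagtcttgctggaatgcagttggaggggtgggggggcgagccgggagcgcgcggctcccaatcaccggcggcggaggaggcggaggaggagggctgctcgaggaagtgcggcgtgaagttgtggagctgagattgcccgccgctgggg
Erbb4, chr1:69108010-69108309, minus strand: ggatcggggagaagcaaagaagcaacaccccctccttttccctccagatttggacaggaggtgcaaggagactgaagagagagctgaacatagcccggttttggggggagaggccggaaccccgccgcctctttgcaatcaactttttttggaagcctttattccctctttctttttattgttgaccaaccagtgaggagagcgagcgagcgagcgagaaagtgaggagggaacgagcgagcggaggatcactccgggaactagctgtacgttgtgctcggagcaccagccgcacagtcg
The Egfr region held 1 ETS core, at position -120 from the gene's start, and 1 GC box (GGGCGG, or CCGCCC on the other strand) at position -9, which does not overlap it. The Erbb2 and Erbb4 regions held neither of these exact stretches, but both hold the shorter GGAA that other forms of the ETS site share. Over all 32544 start regions of the same length, 8.91% held the ETS core and 35.9% the GC box. A match is a stretch of letters and was not tested as a binding site.

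The libraries kept 9537 control, 12173 Emx1 and 12065 hGFAP cells, with median depths of 6427, 4984 and 5321 unique molecular identifiers (UMIs) per cell. Xist was at 1462 CPM (UMIs per 1000000 of the summed cells) in the control and under 1 CPM in both mutants, and the Y-linked Ddx3y at 0 counts, 37.1 and 45.5 CPM. The control thus came from a female source and the mutants from male ones, and sex cannot be told apart from genotype. The 2 targeted genes stayed within 1.5-fold over all kept cells, with Map2k1 between 13.9 and 16.6 CPM and Map2k2 between 196 and 217 CPM, but 3' counts need not fall in the deleted part and check nothing. The libraries shared 43 to 54 barcodes in pairs. Clusters were made without the 4 receptors and named "-like" from marker lists: 13 classes came from 26 of 33 clusters.

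Egfr was by far highest in 2 classes of the control, the multipotent progenitor-like cells, marked by Olig1, Olig2 and Gsx2 among others, and the astroglia-like cells. Summed over the cells of a class and given as CPM of that class's UMIs, its control level was 268 CPM (exact Poisson 95% interval 255 to 282, 525 cells) in the first and 127 CPM (123 to 132, 2317 cells) in the second. Next came oligodendrocyte precursor-like cells at 26.1 CPM (14.6 to 43.0), interneuron lineage-like cells at 24.4 (20.5 to 28.8) and excitatory intermediate progenitor-like cells at 24.1 (18.2 to 31.2), a trio whose intervals overlap. Neurons of the control lay between 1.4 and 1.9 CPM. Microglia-like cells, which should lack all 4 receptors and so show the level of free RNA, had 2 Egfr UMIs in 242 control cells (0.682 CPM) and none in either mutant. The multipotent class also stood first in both mutants, at 64.1 CPM (52.4 to 77.7) and 134.8 CPM (120.9 to 149.8). In the hGFAP library excitatory intermediate progenitor-like cells came second at 33.7 CPM (31.1 to 36.5), above astroglia-like cells at 18.6 (16.2 to 21.2). Mural-like cells stood between them at 26.9 CPM, a value from 10 UMIs, of which 6 lay in 2 cycling cells.

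**Figure D1:**
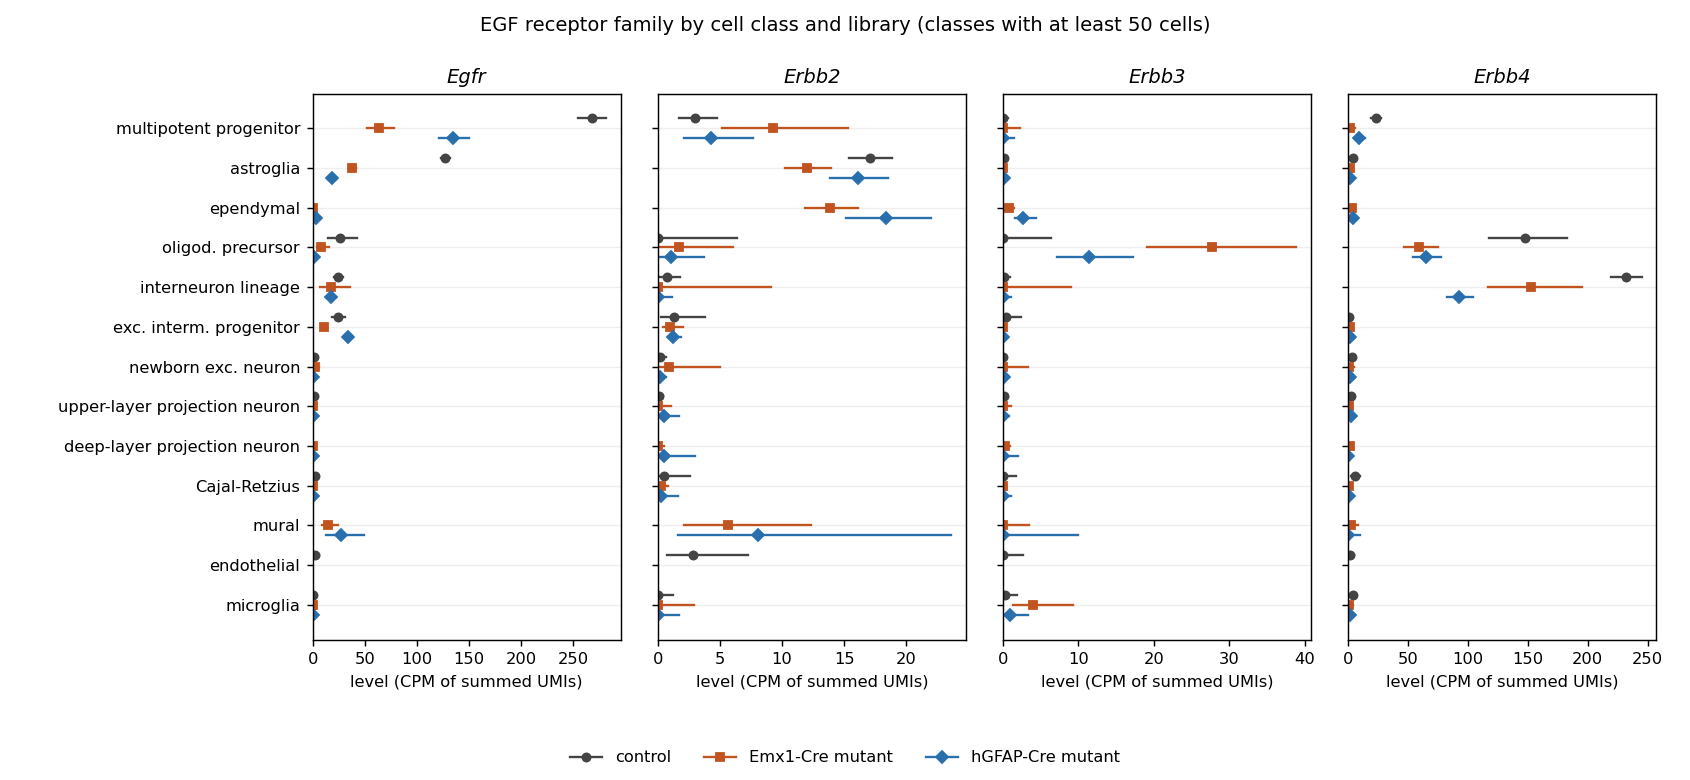
Level of each receptor (x axis, CPM of the class's summed UMIs, a scale of its own in each panel) in each cell class (y axis) of the control, the Emx1 and the hGFAP library, with lines for exact Poisson 95% intervals. Egfr is highest in multipotent progenitor-like and astroglia-like cells of the control (268 and 127 CPM), Erbb4 in interneuron lineage-like cells (232 CPM) and Erbb3 in oligodendrocyte precursor-like cells of the mutants.

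Over all kept cells Egfr was at 60.1, 10.6 and 16.97 CPM in the control, Emx1 and hGFAP libraries, 5.68-fold and 3.54-fold lower in the mutants. Erbb4 was likewise lower, at 22.5, 3.66 and 7.71 CPM, while Erbb2 was at 5.65, 5.20 and 6.49 CPM. These levels mix the amount in each class with the share of each class. A gene is called higher or lower from 1.5-fold on, on the scale of CPM + 5 and with at least 10 CPM in either library. In these pooled cells 19.2% of all 9000 genes were lower by that measure in the Emx1 and 12.3% of 8871 in the hGFAP library.

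The cells that held the Egfr transcripts differed between the libraries. In the control, 61.2% of all Egfr UMIs lay in astroglia-like and 33.0% in multipotent progenitor-like cells. In the Emx1 library the shares were 68.9% and 13.4%, and in the hGFAP library 16.8% and 26.0%. There, 46.7% of Egfr UMIs lay in excitatory intermediate progenitor-like cells, which made up 23.7% of the kept cells against 2.53% in the control. The size of this class depends on naming. With clusters named by mean fold instead, its cluster 7 was unnamed, which left 1140 of 2863 hGFAP and 152 of 241 control cells. Erbb2 UMIs came to 87.0% from astroglia-like cells in the control. In the Emx1 library astroglia-like and ependymal-like cells held near-equal shares, 44.2% and 44.0% (169 and 168 UMIs). In the hGFAP library astroglia-like cells held the most, 37.9%, beside 22.7% in ependymal-like cells and 29.8% in unnamed clusters. Erbb4 UMIs lay mostly in interneuron lineage-like cells in the control (75.5%) and the hGFAP library (50.2%). That share was 23.05% in the Emx1 library, where the class numbered 96 cells, and oligodendrocyte precursor-like cells held 26.4%.

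**Figure D2:**
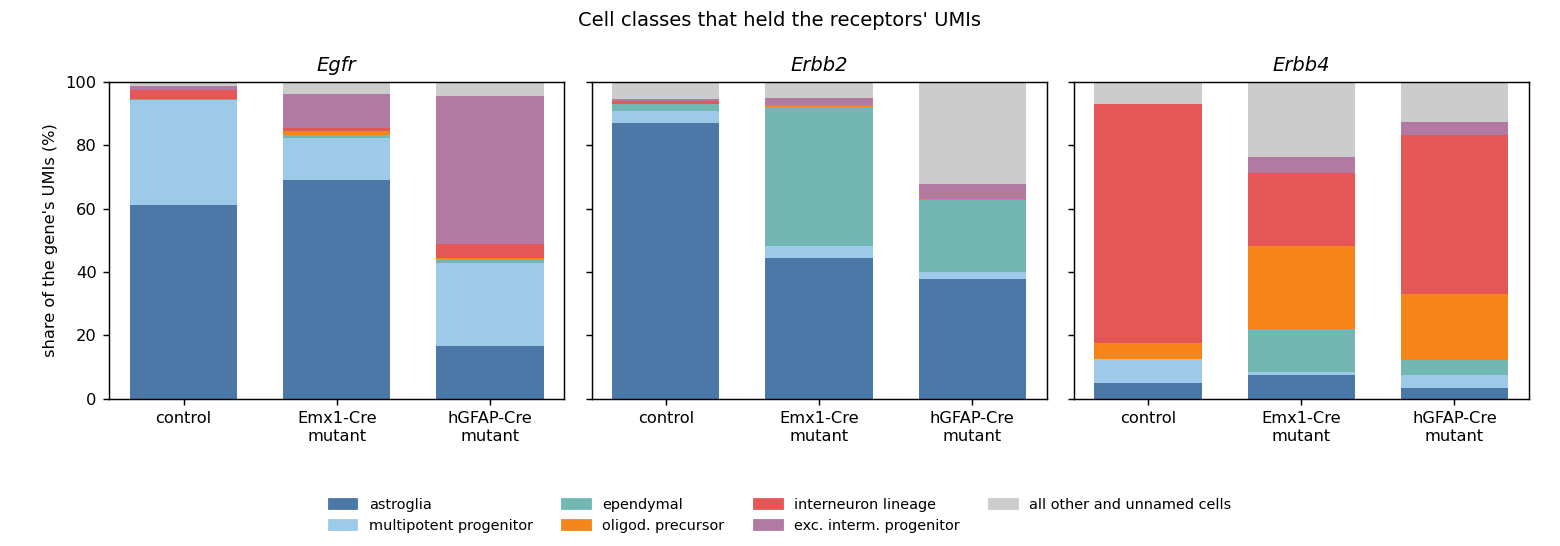
Share of the UMIs of Egfr, Erbb2 and Erbb4 (y axis, percent of the gene's UMIs in kept cells) held by each cell class, stacked for each library (x axis). Astroglia-like cells held 61.2% of Egfr UMIs in the control and 16.8% in the hGFAP mutant, where excitatory intermediate progenitor-like cells held 46.7%.

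In astroglia-like cells Egfr was lower in both mutants. From 127 CPM among control cells it went to 38.0 (34.8 to 41.3) in the Emx1 and 18.6 (16.2 to 21.2) in the hGFAP library, 3.36-fold (3.06 to 3.69) and 6.86-fold (5.98 to 7.89) lower. The 3 intervals do not touch, and over the class as a whole the order control, Emx1, hGFAP is clear of counting error. The order of the mutants was not the same in every part of the class, as given below. A 1.5-fold lower level was common in this class: 30.1% of 8281 genes in the Emx1 and 15.1% of 8473 in the hGFAP library, with median log2 ratios of -0.33 and -0.08 over all genes. The log2 ratios of Egfr were -1.62 and -2.49, or -1.32 and -2.42 after the median-of-ratios shift over genes was subtracted, the scaling meant wherever a scaled value is given beside a gene or list here. The class's own markers also differed in level: Mfge8 was at 1506, 221 and 521 CPM, Hopx at 649, 137 and 508, Slc1a2 at 614, 189 and 384, Sox9 at 528, 197 and 409, and Fabp7 at 22399, 40286 and 22179 CPM. The 13 astroglia markers, none at 0, summed to 33884, 46635 and 30328 CPM, a sum carried by Fabp7, and their part in the Egfr difference was not tested. The share of astroglia-like cells with an Egfr UMI was 42.7%, 21.9% and 8.38% at median depths of 8278, 7451 and 5213 UMIs, against 0.826%, 0% and 0% of microglia-like cells at 11162, 4800 and 6605 UMIs. With each cell thinned to 2000 UMIs, leaving out 12 control cells that had fewer, the shares were 16.8%, 7.30% and 3.10%.

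Within the astroglia-like class Egfr differed strongly from cluster to cluster, and the clusters differed by library. The control's cells lay mainly in 2 clusters. Cluster 0, led by Chil1, Hopx and Slco1c1, had Egfr at 24.5 CPM (21.4 to 27.9, 1266 cells). Cluster 1, led by Dbx2, Mfge8 and Egr1 and with all 8 cycling markers raised, had it at 205.5 CPM (197.7 to 213.6, 1013 cells). Of the Emx1 cells 91.6% were in cluster 23, led by Has2, A2m and Lef1, at 36.3 CPM (33.2 to 39.8), and of the hGFAP cells 92.8% in cluster 17, led by Prm1 and Ephx1 (Prm1 had 0, 3 and 44171 UMIs in the 3 libraries), at 11.9 CPM (9.93 to 14.2). The few mutant cells that fell in cluster 1 had 175.6 CPM (118.5 to 250.7) in 26 Emx1 and 157.8 CPM (108.6 to 221.6) in 23 hGFAP cells, on 30 and 33 UMIs, and both of these wide intervals overlap that of the control. The level of the hGFAP cells in cluster 17 lay below that of the control cells in cluster 0. In cluster 23 the 77 hGFAP cells had Egfr at 62.5 CPM, 1.72-fold (1.26 to 2.30) the Emx1 level there. That is the reverse of the mutants' order over the whole class. These clusters came from genes of the same cells, so the values describe them and are no test.

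Multipotent progenitor markers and the cell cycle differed along with Egfr in this class. The 6 multipotent progenitor markers, none at 0, summed to 708 CPM in the control's astroglia-like cells, 265 in the Emx1 and 60.7 in the hGFAP library. In control cluster 1 their sum was 1186 CPM and in control cluster 0 it was 63.6 CPM. The share of cycling cells, those with at least 3 UMIs of 8 cycling markers, was 20.4%, 50.9% and 2.66%. The part of either in the difference between genotypes was not tested, but cells on each side of that threshold were compared on their own. Cells near the threshold, with 2 or 3 such UMIs, numbered 114, 187 and 35. The threshold is not adjusted for depth, so deeper cells pass it more easily. Of the Cajal-Retzius-like neurons 69.7% passed in the control (median 18928 UMIs) and 9.50% in the Emx1 library (6114 UMIs).

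**Figure D3:**
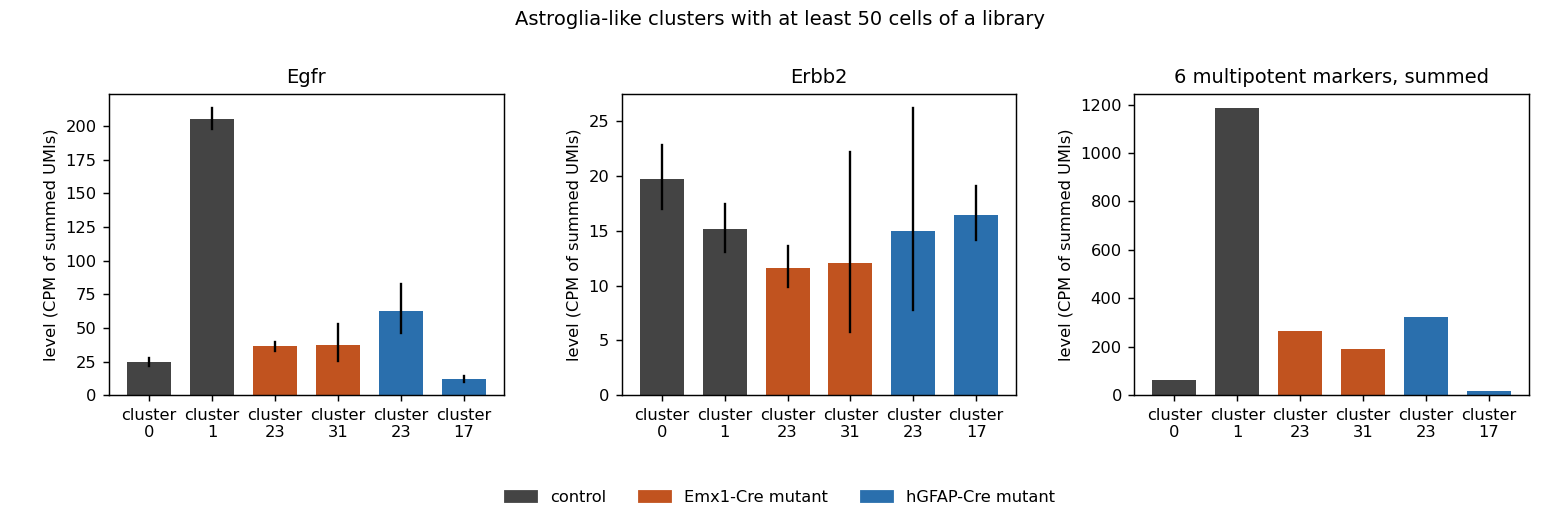
Levels (y axes, CPM of summed UMIs) of Egfr, Erbb2 and the sum of 6 multipotent progenitor markers in each astroglia-like cluster (x axis) with at least 50 cells of a library, coloured by library, with black lines for exact Poisson 95% intervals of the single genes. Egfr spans 11.9 to 205.5 CPM and the marker sum 19.3 to 1186 CPM, with cluster 1 of the control highest in both, whereas Erbb2 spans 11.6 to 19.7 CPM.

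Among cycling astroglia-like cells Egfr was at 187.5, 35.0 and 65.8 CPM (473, 900 and 54 cells), and among the others at 98.8, 42.2 and 16.1 CPM (1844, 867 and 1975 cells). Both mutants were below the control on each side, by 5.35-fold and 2.85-fold in cycling cells and by 2.34-fold and 6.13-fold in the others. The order of the mutants turned around: the hGFAP level was 1.88-fold (1.31 to 2.63) that of the Emx1 library in cycling cells and 0.382-fold (0.314 to 0.465) in the others. Genes at least 1.5-fold lower made up 25.9% and 20.6% of those measured in cycling cells, and 31.3% and 13.2% in the others.

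Multipotent progenitor-like cells, a single cluster of 525, 127 and 245 cells, had Egfr at 268, 64.1 and 134.8 CPM, 4.18-fold (3.42 to 5.15) and 1.99-fold (1.77 to 2.24) lower in the mutants, with no overlap among the 3 libraries. Lower by 1.5-fold were 35.9% and 21.7% of all genes of the class. The identity of the class was itself weaker in the mutants: its 6 markers, none at 0, summed to 3074 CPM in the control, 508 in the Emx1 and 1895 in the hGFAP cells, and the 13 astroglia markers to 5393, 13781 and 8961 CPM. Cycling cells made up 35.4%, 89.0% and 55.1% of it. In these alone Egfr stood at 272, 61.5 and 113 CPM, lower in both mutants as were 36.2% and 24.9% of genes, and in the others at 264 CPM for the control and 181 CPM for the hGFAP library, while the Emx1 library had too few. The part of these shifts in the Egfr difference was not tested.

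Another pattern was seen in excitatory intermediate progenitor-like cells, whose markers include Eomes and Neurog2. Egfr was at 24.1 CPM (18.2 to 31.2, 241 cells) in the control, 10.5 (8.35 to 12.995, 1742 cells) in the Emx1 and 33.7 (31.1 to 36.5, 2863 cells) in the hGFAP library. The Emx1 level was 2.30-fold (1.61 to 3.26) lower, beside 19.1% of genes that were lower there, and the hGFAP level was 1.40-fold (1.07 to 1.88) higher, under the 1.5-fold mark and with intervals that meet. In the cycling cells of the class it was called higher in the hGFAP mutant, at 47.9 CPM (43.0 to 53.3) against 25.7 (18.3 to 35.1), 1.87-fold (1.34 to 2.67), as were 9.53% of the 7805 genes measured. In the Emx1 mutant these cells had 17.9 CPM. Different clusters held most of the class: cluster 8, with the cycling genes, 63.1% of control cells, and cluster 7 71.2% and 60.2% of the mutants'. Within cluster 8 Egfr was at 29.3, 23.2 and 59.3 CPM, and within cluster 7 at 9.64, 1.90 and 5.20 CPM.

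**Figure D4:**
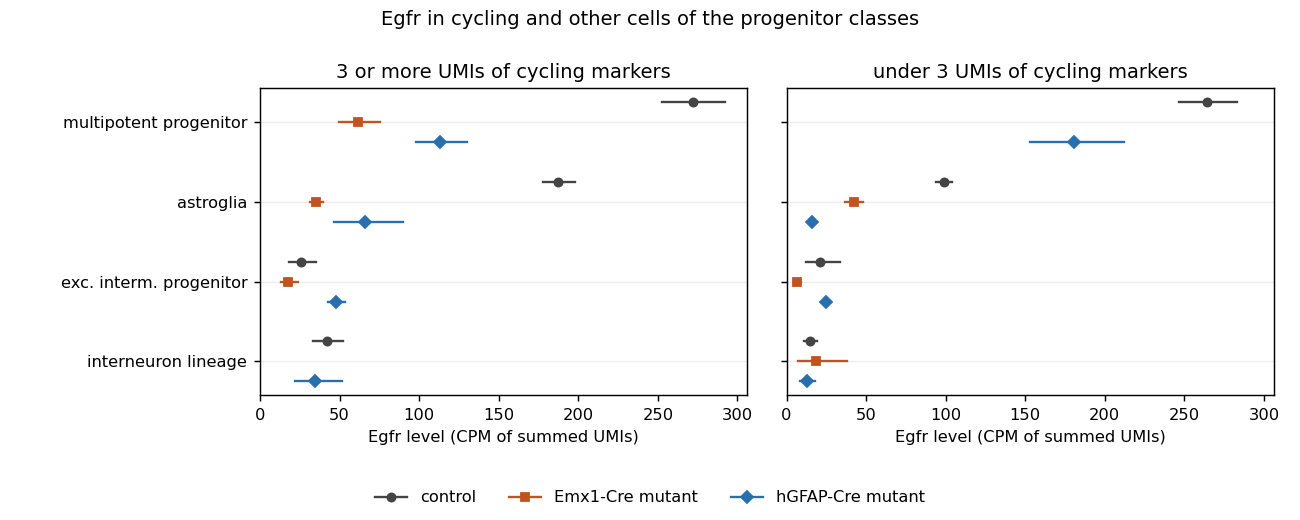
Egfr level (x axis, CPM of summed UMIs) in 4 progenitor classes (y axis), split into cells with at least 3 UMIs of 8 cycling markers (left) and all others (right), for each library with at least 50 such cells, with exact Poisson 95% intervals as lines. The control is highest in multipotent progenitor-like and astroglia-like cells on both sides, and the hGFAP mutant in cycling excitatory intermediate progenitor-like cells (47.9 CPM against 25.7).

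Oligodendrocyte precursor-like cells, with Pdgfra and Sox10, were few in the control (66 cells against 282 and 260). Egfr rested there on 15, 10 and 3 UMIs, levels of 26.1, 8.39 and 1.56 CPM, and the control's interval (14.6 to 43.0) met that of the Emx1 library (4.03 to 15.4) and not that of the hGFAP library (0.321 to 4.55). The latter is a difference of 16.7-fold with a counting interval of 4.74 to 90.2. Interneuron lineage-like cells had Egfr at 24.4, 17.2 and 17.2 CPM (1009, 96 and 593 cells), less than 1.5-fold apart, with overlapping intervals (20.5 to 28.8, 6.92 to 35.4 and 13.01 to 22.4).

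Erbb2, the partner without a ligand, was a low-level gene of astroglia-like and ependymal-like cells. Its control level in astroglia-like cells was 17.03 CPM (15.4 to 18.8), beside 11.97 (10.2 to 13.9) for the Emx1 and 16.1 (13.9 to 18.5) in the hGFAP library. The Emx1 level was 1.42-fold (1.18 to 1.72) lower, under the 1.5-fold mark, and after scaling by the median of ratios its log2 ratio was -0.07 in place of -0.38. In cycling astroglia-like cells the levels were 10.9, 11.4 and 11.8 CPM, and in the others 19.9, 12.8 and 16.3 CPM. Ependymal-like cells had 13.9 and 18.3 CPM in the mutants, close to astroglia-like cells and within their intervals, with too few cells in the control. In the unnamed cluster 24, led by Ogn and Sfrp5 and with 9 of 13 astroglia markers raised, 862 hGFAP cells had Erbb2 at 18.7 CPM (15.7 to 22.1) and Egfr at 6.08 CPM (4.42 to 8.17). Thus in the same hGFAP cells Egfr was far below the level of the control's astroglia-like class as a whole, and Erbb2 near it. The Egfr level of control cluster 0, given above, was nearer, though still above that of these cells. Microglia-like cells had no Erbb2 UMI in any library.

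Erbb3, the neuregulin receptor of the oligodendrocyte lineage, was counted 9, 51 and 45 times in all kept cells. In oligodendrocyte precursor-like cells it had 0 counts in the control (interval 0 to 6.41 CPM), 33 in the Emx1 library (27.7 CPM, 19.1 to 38.9) and 22 in the hGFAP library (11.4 CPM, 7.15 to 17.3). Set against a floor of 3 counts in the control library, 5.21 CPM, the mutants' values were 5.31-fold and 2.19-fold higher. That floor lies below the control's upper limit of 6.41 CPM, and the folds leave out the counting error of the mutants' own values, so they are no strict bounds. The hGFAP interval began just above where the control's ended. The mutants' higher values stood beside 12.8% and 10.8% of genes called higher in this class. Precursor cells held 64.7% and 48.9% of Erbb3 UMIs in the mutants, and ependymal-like cells 19.6% and 37.8%. Microglia-like cells had 0.341, 3.99 and 0.910 CPM, and the interval of the Emx1 microglia-like cells (1.29 to 9.30, 5 UMIs) ended below that of the precursor cells. The share of precursor cells with an Erbb3 UMI was 0%, 10.3% and 6.15% at median depths of 7951, 3646 and 6980 UMIs, and thinned to 2000 UMIs it was 0%, 5.67% and 2.69%. By these medians the mutants' cells were no deeper than the control's, but they were more numerous, 282 and 260 against 66. The control's 0 counts thus come from a smaller pool of cells, and the part of this in the difference was not tested. The control's 66 cells carried all 11 precursor markers at a sum of 4109 CPM, against 3083 and 3302 CPM. The 13 astroglia markers summed to 8111, 17518 and 6601 CPM there, and their part in the difference was not tested.

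Erbb4, the main neuregulin receptor of interneurons, was at 232 CPM (220 to 245) in interneuron lineage-like cells of the control, marked by Dlx1, Dlx2, Gad1 and Sp8. It was at 152 CPM (117 to 195) in the Emx1 and 92.9 CPM (82.7 to 103.9) in the hGFAP library, 1.52-fold (1.18 to 2.00) and 2.50-fold (2.20 to 2.84) lower, with no overlap among the 3 intervals. Genes called lower were 23.6% and 14.4% of those of the class. Erbb4 was mostly in cells outside the cycle: these had 349, 163 and 115 CPM, beside 22.6% and 15.4% of genes called lower, and cycling cells 13.6 CPM in the control and 8.97 in the hGFAP library. The share of cells with an Erbb4 UMI was 53.3%, 42.7% and 33.2%, and 36.8%, 26.0% and 18.7% after thinning, against 2.48%, 0.429% and 0.660% of microglia-like cells.

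The class held different clusters in different libraries. Cluster 14, led by Sp9, Dlx5 and Sp8, had 51.8% of its control cells, and cluster 25 had 55.2% of its Emx1 and 36.6% of its hGFAP cells. Within cluster 13, led by Adarb2, Npas1 and Prox1os, Erbb4 was at 534 CPM (501 to 568), 243 CPM (165 to 345) and 206 CPM (175 to 241). In cluster 25 it was at 235, 122 and 76.8 CPM, and in cluster 14 at 69.2 CPM in the control and 34.6 CPM in the hGFAP library. Cluster 25 held 30, 53 and 217 cells and cluster 13 held 456, 37 and 191, so the values from fewer than 50 cells are given side by side and not compared. In clusters 13 and 14 the hGFAP level lay below that of the control, with no overlap of intervals. The 8 cortical interneuron markers, such as Lhx6 and Sst, summed to 738, 2389 and 2269 CPM in this class (Nkx2-1 was at 0 in the Emx1 cells), and the 11 markers of the class to 4189, 2822 and 3467 CPM. Among the latter Meis2 ran the other way, at 742, 1310 and 1317 CPM, while Dlx2 was at 581, 241 and 325 CPM and Sp9 at 414, 115.5 and 249 CPM. Their part in the Erbb4 difference was not tested. When clusters were named by mean fold instead, the Emx1 log2 ratio turned from -0.59 to 0.45, and that of the hGFAP library was -0.45 in place of -1.28. With that naming cluster 13 was unnamed and left the class, and cluster 30, with 51 hGFAP and 2 control cells, joined it.

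Oligodendrocyte precursor-like cells were the other Erbb4-rich class, at 148 CPM (118 to 183), 59.6 (46.5 to 75.2) and 65.4 (54.5 to 77.9). Both mutants lay below the control, by 2.48-fold (1.79 to 3.45) and 2.26-fold (1.69 to 2.998), and the mutants' intervals overlapped, in a class where 22.5% and 21.9% of genes were lower. Erbb4 and Erbb3 thus differed in opposite directions in the same precursor cells. In multipotent progenitor-like cells Erbb4 was at 23.2, 1.85 and 9.38 CPM, and the Emx1 value rests on 3 UMIs. There the control cells without an Egfr UMI had Erbb4 at 34.1 CPM (22.8 to 48.9, 102 cells) and those with one at 21.3 CPM (17.4 to 25.8, 423 cells), intervals that overlap. It was called lower there in both mutants, but outside the cycle the hGFAP value was 25.6 against 32.6 CPM, under the 1.5-fold mark. In astroglia-like cells Erbb4 stood at 3.84, 1.42 and 1.76 CPM, beside 3.75, 0.797 and 1.37 CPM in microglia-like cells.

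Each ligand was followed to the class where it was highest. Of 11 EGF family ligands, Egf, Ereg, Epgn, Btc and Nrg4 stood at 3.72 CPM or below in their highest class. Nrg1, a ligand of Erbb3 and Erbb4, was highest in Cajal-Retzius-like cells, at 117.5, 74.2 and 97.7 CPM, and Nrg3 in the same class of the Emx1 library (26.7 CPM). Nrg2 was highest in deep-layer projection neuron-like cells of the hGFAP library, at 16.4 CPM. Tgfa, an Egfr ligand, was highest in oligodendrocyte precursor-like cells, at 103, 83.9 and 72.7 CPM with overlapping intervals. Hbegf led in endothelial-like cells of the control (116.8 CPM), and Areg in ependymal-like cells of the Emx1 mutant, at 15.9 CPM against 6.22 in the hGFAP mutant.

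In astroglia-like cells 3 ligands reached 10 CPM. Tgfa was at 17.5, 1.13 and 17.8 CPM and Nrg1 at 56.5, 12.2 and 39.6 CPM, so both were called lower in the Emx1 mutant (log2 ratios -1.88 and -1.84) and neither in the hGFAP mutant. Hbegf was at 16.4, 24.1 and 9.30 CPM, within 1.5-fold on the scale of CPM + 5, but called higher in the Emx1 mutant after scaling by the median of ratios (0.75). In multipotent progenitor-like cells Hbegf was instead higher in both mutants, at 38.9 and 35.6 CPM against 4.70 CPM, where 11% and 8.38% of genes were called higher.

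The other genes of the pathway were read from 4 lists in the same astroglia-like cells. Of the 4 genes for ligand shedding, Adam10 and Adam17, the proteases, stayed between the 1.5-fold marks in both mutants, and Rhbdf2, a regulator of Adam17, was called higher in the hGFAP mutant, at 10.9 against 0.447 CPM. Genes called higher were 6.82% and 11.1% of those measured in the class. Of 10 receptor inhibitors and turnover genes 6 were measured. Lrig1, which promotes receptor degradation, was at 42.5, 71.3 and 19.3 CPM, higher in the Emx1 mutant (log2 ratio 0.68) and lower in the hGFAP mutant (-0.97). Cblb, a ubiquitin ligase, and Usp8, a deubiquitinase, were called lower in the Emx1 mutant, at 9.35 against 17.5 and 23.7 against 41.8 CPM, but not after scaling by the median of ratios. Of 9 measured adaptors 1 was higher (Stat3, 83.1 against 50.9 CPM) and 1 lower (Sos1) in the Emx1 mutant, and none in the hGFAP mutant. The list medians were -0.38 and -0.09, beside -0.33 and -0.08 for all genes.

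Among the ERK response genes the mutants differed from the control to unlike extents. In the hGFAP mutant 9 of 13 measured members were lower and 1, Phlda1, higher, with a median log2 ratio of -1.35 beside -0.08 over all genes and 15.1% of genes called lower. The largest were Etv4 (-2.09), Etv5 (-1.90), the feedback inhibitor Spry4 (-1.75), the ERK phosphatase Dusp6 (-1.69) and Etv1 (-1.66). In the Emx1 mutant 5 of 14 were lower and 3 higher, with a median of -0.19 beside -0.33 over all genes, in a class where 30.1% of genes were lower and 6.82% higher, so the share of lower members was near that of all genes. After scaling 1 was lower. There Spry1 was at 77.8 against 20.7 CPM, Ier3 at 173 against 52.0 CPM and Myc at 28.0 against 9.47 CPM, while Etv5 was at 42.8 against 85.6 and Etv4 at 44.8 against 81.7 CPM. These comparisons share the control library, and the earlier results of these data were known when the lists were chosen.

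**Figure D5:**
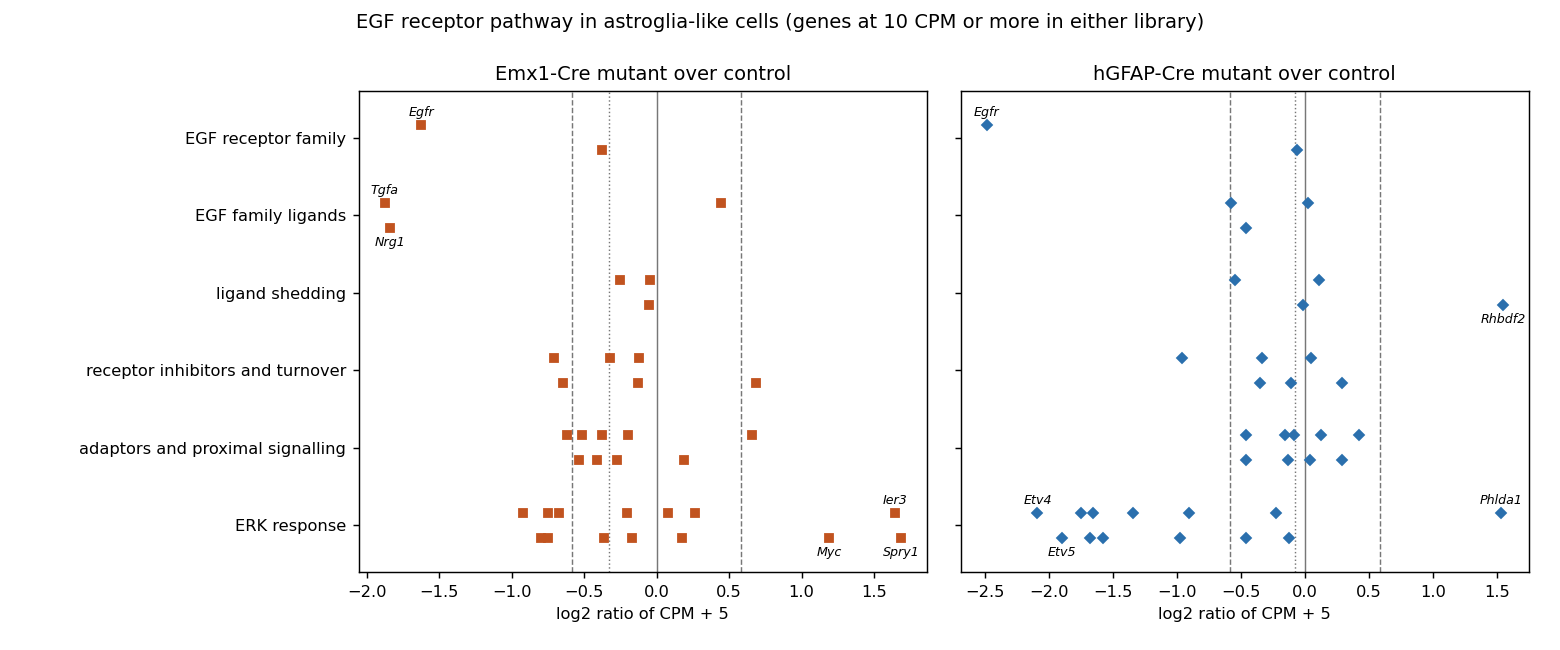
Log2 ratio of each mutant over the control (x axis, CPM + 5) in astroglia-like cells for the receptors and 5 pathway lists (y axis), 1 point per gene at 10 CPM or more in either library. Dashed lines mark 1.5-fold and the dotted line the median of all genes (-0.33 and -0.08), and names are given at ratios of 1 or more, at -1.8 or less and for Egfr. Egfr lies at -1.62 and -2.49, Erbb2 at -0.38 and -0.06, and in the hGFAP mutant most ERK response genes lie left of the dashed line.

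In multipotent progenitor-like cells the ERK response list gave the same count in both mutants, 5 of 12 measured members higher (Spry1, Dusp6, Ier3, Myc and Phlda1) and 2 lower. Over all genes of the class 11% and 8.38% were higher and 35.9% and 21.7% lower. Ier3 had the largest ratios, 174 and 170 CPM against 19.5 CPM in the control. Dusp6 was at 21.3, 49.96 and 54.3 CPM, the opposite side from astroglia-like cells of the hGFAP mutant. Etv5 was called lower in both. Pik3r1, a subunit of PI3 kinase that binds active receptors, was at 118.7, 34.5 and 80.5 CPM. In oligodendrocyte precursor-like cells 3 of 13 ERK response genes were lower and 2 higher in the Emx1 mutant, and 5 lower in the hGFAP mutant, where 22.5% and 21.9% of all genes were lower and 12.8% of genes were higher in the Emx1 mutant. The Emx1 counts are thus near those shares. The hGFAP list was led by Etv5 at 88.6, 48.7 and 27.0 CPM. In interneuron lineage-like cells 4 of 8 and 5 of 9 were lower, beside 23.6% and 14.4% of all genes, led in the Emx1 mutant by Etv1, at 102.5 against 19.7 CPM, and in the hGFAP mutant by Dusp6, at 10.6 against 1.23 CPM.

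Across the 34 combinations of class and library with at least 50 cells, the genes whose levels ran most like each receptor were found by Pearson's r of log2 levels among 12400 genes. For Egfr they were Chek1 (r = 0.873), Dbx2 (0.838), Pole2 (0.835), Rcc1 (0.834) and Ccnd2 (0.8298), of which Chek1, Pole2 and Ccnd2 are known from the cell cycle and replication. For Erbb2 they were Ccdc80 (0.939), Gja1 (0.927), Mlc1 (0.925), Col4a5 (0.906) and Pdpn (0.905). Gja1 and Mlc1 are astroglia markers used to name the class. For Erbb4 they were Asic4 (0.957), Npas1 (0.930), Nxph1 (0.904), Sp9 (0.871) and Gad1 (0.865), and for Erbb3 Fam19a4 (0.910), Gjc3 (0.904), Col19a1 (0.903), Irx1 (0.894) and Pnlip (0.882). The points share libraries and depth, and the Erbb3 values rest on few counts.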

How the data were processed

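The 3 libraries are deposited as 10x matrices of whole-number UMI counts per gene and cell barcode, which the authors obtained from Cell Ranger 5.0.0, per the file headers, on mm10, per the submitters' processing notes. Cells with at least 1000 genes and under 10% mitochondrial counts were kept, and doublets predicted with Scrublet (10% expected) were removed. Clustering used scanpy 1.11.5 with 2000 variable genes, 30 components, 15 neighbours and Leiden at resolution 1, without batch correction and without the receptors, pathway genes, sex-linked and cell-cycle genes. A cluster was named from a marker list with at least 3 members raised 2-fold or more and seen in 25% of cells. The naming rule, the cycling threshold and the genes left out were chosen after clusters were seen.

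For every class in a library the counts were added up over its cells and divided by their total. Log2 ratios used a pseudocount of 5 CPM. Exact Poisson intervals and exact binomial intervals of ratios are at 95% and cover counting error only. For folds alone, a group with 0 counts was set to a floor of 3 counts, and its log2 ratio, taken from 0 with the pseudocount, is no bound. Classes under 50 cells in a library were not compared. Promoter sequences are from RefSeq and gene positions from the GENCODE annotation of GRCm38, matched by symbol and Ensembl identifier. The calling was tested on simulated Poisson counts with set folds, drawn from the profile of the control's astroglia-like cells. Such counts hold no spread between animals or libraries, so that test covers counting error only. The receptors and lists were chosen with earlier results of these data known. Genes named beside the receptors are, for each list and comparison, at most 5 members at 10 CPM or more with the largest absolute log2 ratio, each ligand at its highest class, and the 5 genes most like each receptor. List members named beyond these were chosen after their values were seen. Alternatives were other pseudocounts, scaling, means over cells, filters, resolution, naming rules, libraries clustered alone and cycling or other cells alone.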

Additional observations from a re-analysis of the deposited data

Results flagged for a closer look

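Egfr stood out because the difference between the hGFAP mutant and the control did not have 1 size or direction across cell classes, and this difference between classes was not tested, with 1 library per genotype. The log2 ratio was -2.49 in astroglia-like cells, -1.44 in their cycling cells and -2.30 in the others. It was -2.24 in oligodendrocyte precursor-like cells and -1.97 in those outside the cycle, where it rests on few counts. In multipotent progenitor-like cells it was -0.97, and -1.23 in the cycling ones. Cycling excitatory intermediate progenitor-like cells had the opposite sign, 0.79.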

How the results depend on the processing

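Of 98 recomputed log2 ratios 77 stayed within the main interval, 20 moved and 1 reversed, and the cause was not tested. In astroglia-like cells the Egfr ratio of the Emx1 mutant (-1.62) was -1.35 with a pseudocount of 20 CPM, -1.35 with CPM scaled by the median of ratios before the pseudocount was added, -1.34 as a mean of the cells' own CPM, -1.42 under 5% mitochondrial counts, -1.30 with each library clustered alone and -2.27 in cycling cells. That of the hGFAP mutant (-2.49) was -2.71 and -1.93 with pseudocounts of 1 and 20 CPM, -2.73 with doublets kept, -2.75 with libraries clustered alone, -1.44 in cycling cells and -2.82 with unnamed astroglia clusters joined. Erbb2 in the Emx1 mutant (-0.38) was 0.042 in cycling cells. Erbb3 in oligodendrocyte precursor-like cells (2.71 and 1.72) was 4.84 and 3.63 with a pseudocount of 1 CPM and 1.25 and 0.65 with 20 CPM, since the control had 0 counts and the ratio is set by the pseudocount. Erbb4 in interneuron lineage-like cells of the Emx1 mutant (-0.59) reversed to 0.45 when clusters were named by mean fold, which took cluster 13 out of the class. It was -1.08 outside the cycle. In the hGFAP mutant (-1.28) it was -1.58 as a mean over cells, -0.45 with naming by mean fold, -2.11 with libraries clustered alone and -1.57 outside the cycle. The splits by cycling and the joining of unnamed clusters were chosen after seeing the data. With 1 library per genotype, spread between animals is unknown, and genotype cannot be told apart from sex or from the library. Erbb3, and Egfr in oligodendrocyte precursor-like cells, are limited by counts of a few UMIs. No paired analysis was possible because each genotype has 1 library.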
